A study of Mus musculus with 6 samples.

Results

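Interferon-responding Treg cells were the cells of a splenic regulatory T cell (Treg) data set that carried transcripts of 6 interferon-induced genes, Ifit1, Ifit3, Ifit3b, Isg15, Rsad2 and Usp18. A cell was a member when these genes gave it 4 or more unique molecular identifiers (UMIs, each standing for 1 captured transcript) from at least 2 of the genes. It also had to have 200 or more genes with a UMI, under 10% of its UMIs from mitochondrially encoded genes, and no UMI of the B cell gene Cd79a or the macrophage gene Lyz2. Of 10685 cells in the table, 10162 passed the limits on genes, mitochondrial UMIs, Cd79a and Lyz2, and 226 of these were members (2.22%, exact Clopper-Pearson interval 1.95 to 2.53%). The other 9936 cells that passed the limits were the comparison throughout.

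The cells were single EGFP+ Treg cells from the spleens of C57BL/6 mice aged 18 to 21 weeks, measured by 10x Genomics Chromium 3′ single-cell RNA sequencing. The study set 3 samples of Bach2fl/fl Foxp3EGFP-Cre-ERT2 mice (cKO), in which Treg cells lose Bach2, a transcriptional repressor of effector differentiation, against 3 of Bach2+/+ Foxp3EGFP-Cre-ERT2 mice (WT). Both groups carried the Foxp3EGFP-Cre-ERT2 allele and both received tamoxifen, so recombination was limited to cells that expressed Foxp3 while the drug was present. The table names cells by barcode with a suffix from 1 to 6 and does not tie a suffix to a sample, so the 6 suffix sets are described by number. Their genotype is not known here, and cKO and WT were not compared. Values of a set therefore have no replicates of a group behind them: intervals cover counting error only, and no p-value was computed.

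Type I interferons bind a receptor made of the Ifnar1 and Ifnar2 chains, whose kinases phosphorylate STAT proteins. These join Irf9 into a complex that binds interferon-stimulated response elements in promoters, and interferon gamma acts through its own receptor on partly the same genes. The induced genes hamper viral entry, translation, replication and budding, mark proteins with the ubiquitin-like ISG15, sense foreign nucleic acid and raise antigen presentation on MHC class I. Among the defining genes, Ifit1, Ifit3 and Ifit3b encode proteins that act on viral RNA, Isg15 encodes the modifier itself, Rsad2 encodes viperin, and Usp18 removes ISG15 and restrains signalling at the receptor.

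Promoter sequence shows what these genes have in common before their levels are considered. The letters searched were GAAA, any 2 bases and GAAA again, the core of the interferon-stimulated response element, on both strands (TTTC, any 2 bases and TTTC when read on the other strand). They were searched in the 300 bases from 250 before to 50 after each gene's start in RefSeq promoters of build GRCm38.p6. Of the defining genes, 5 of the 5 with a promoter entry held the letters, and Usp18 had no entry. A stretch around each match is shown 5′ to 3′ on the gene's strand, with the match in capitals, because these genes define the cells.
Isg15, chr4:156200850-156200909, minus strand: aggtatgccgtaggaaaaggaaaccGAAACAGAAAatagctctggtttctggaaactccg
Ifit1, chr19:34640779-34640838, plus strand: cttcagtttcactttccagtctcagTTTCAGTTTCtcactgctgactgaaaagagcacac
Ifit3, chr19:34583382-34583441, plus strand: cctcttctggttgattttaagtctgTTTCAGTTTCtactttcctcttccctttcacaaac
Rsad2, chr12:26456538-26456597, minus strand: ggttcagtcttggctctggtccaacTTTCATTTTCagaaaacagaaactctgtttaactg
Where a promoter held several matches, the one nearest to the start, on the upstream side, is shown. The matches lay 56, 75, 112 and 110 bases before the starts of Isg15, Ifit1, Ifit3 and Rsad2. The 60-base window of Ifit3b (chr19:34607778-34607837) differed from that of Ifit3 in 0 letters, so the promoters as well as the transcripts of this pair are near copies, and how reads were divided between them is uncertain. A match is a description of the letters and not evidence of a bound site.

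Members occurred in every set, at shares that differed up to 3.76-fold. The shares were 1.98% in set 1 (35 of 1769 cells, interval 1.38 to 2.74%), 0.936% in set 2 (16 of 1709, 0.536 to 1.52%) and 3.04% in set 3 (54 of 1778, 2.29 to 3.94%). They were 1.74% in set 4 (29 of 1668, 1.17 to 2.49%), 2.21% in set 5 (37 of 1674, 1.56 to 3.03%) and 3.52% in set 6 (55 of 1564, 2.66 to 4.55%). The interval of set 2 lay below those of sets 3, 5 and 6, while sets 1, 4 and 5 overlapped one another. Members were deeper than other cells, with a median of 2540 against 2076 UMIs and 1035.5 against 915 genes, and a count threshold is easier to pass at depth. The rule was therefore also applied to cells thinned to 1000 UMIs each, at 2 or more UMIs from 2 or more genes, with 303 shallower cells left out. It then picked 244 of 9859 cells (2.47%), of which 157 were members. The shares of sets 1 to 6 became 1.90, 1.28, 3.41, 2.33, 2.35 and 3.65%, with set 2 still lowest and set 6 still highest. Cells outside the members also differed between sets in the summed level of 42 antiviral genes that were not part of the rule, in CPM (UMIs of a gene per 1e6 UMIs). Sets 1, 2 and 3 had 5573, 5536 and 5604 CPM, and sets 4, 5 and 6 had 6645, 6582 and 6922 CPM. That order is not the order of the shares, since set 3 with the second highest share stood with the low sets.

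**Figure D1:**
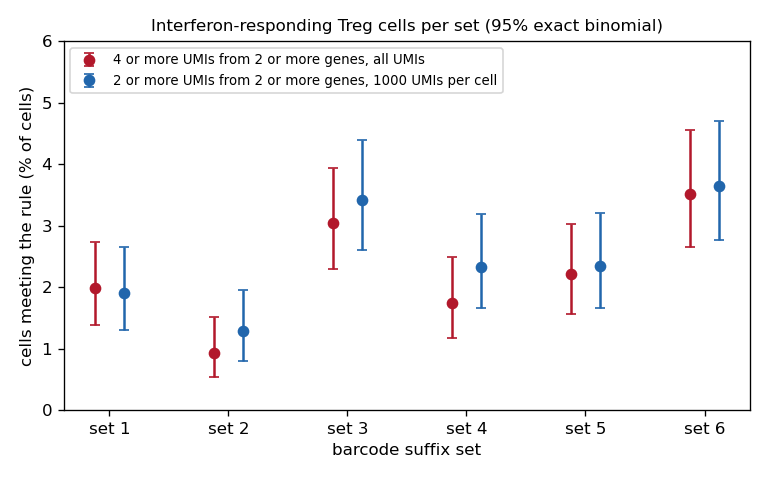
Share of cells that met the interferon rule in each of the 6 barcode sets, in percent of cells passing the limits, with 95% exact binomial intervals. Red points use all UMIs of a cell and blue points use cells thinned to 1000 UMIs. Set 2 is lowest (0.936%) and set 6 highest (3.52%) by the rule on all UMIs.

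The values that chose the members are given as a description. A member held a median of 7 defining UMIs from a median of 3 genes and at most 48. Isg15 was found in 214 members, Ifit1 in 184, Ifit3 in 152, Usp18 in 123, Ifit3b in 58 and Rsad2 in 52. Their levels in members were 1129 CPM for Isg15, 773 for Ifit1, 562 for Ifit3, 297 for Usp18, 131 for Ifit3b and 117 for Rsad2. In other cells the corresponding levels were 74.0, 24.8, 11.1, 22.4, 2.58 and 3.52 CPM. The members held 1977 of the 5199 defining UMIs of all passing cells (38.0%), so most of these transcripts lay, 1 to 3 at a time, in cells below the threshold. No defining UMI was seen in 7501 cells, while 1825 had 1, 450 had 2 and 148 had 3. Just inside the threshold stood 53 members with 4 defining UMIs and 30 with 5, and 143 had 6 or more. Another 12 cells had 4 or more defining UMIs from 1 gene alone and were not members.

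The members carried T cell and Treg transcripts. All 226 held a UMI of Cd3d, Cd3e or Cd3g, chains of the T cell receptor complex, as did 99.5% of other cells. A UMI of at least 1 of 6 Treg markers was found in 221 members (97.8%) and in 97.8% of other cells, a share too near its ceiling to show a difference. In all the 6 markers had 1687 UMIs where 1949 were expected. Foxp3, the lineage factor whose locus carries the EGFP reporter, was thinly captured, with 14 UMIs in members where 14 were expected from the other cells of the same sets. Of 8 B cell markers in the table, Cd79a was at 0 because the limits required it. Others at 0 in members included Ebf1 and Fcmr, where 0.269 and 1.59 UMIs were expected. Ms4a1 had 2 UMIs against 0.913 and Pax5 had 1 against 0.251, while Cd22 had 1 against 1.55 and Cd79b had 19 against 26.6. The summed level was 9.38 to 60.2 CPM over the sets against 41.1 to 53.4 CPM in other cells. Of 12 myeloid markers, Lyz2 was likewise at 0 by the limits. Csf1r, Itgam, Clec4a2 and Ly86 were at 0 where 0.227, 0.0618, 0.0848 and 0.400 UMIs were expected, so these zeros show little. The sum was 483 to 573 CPM against 435 to 538 CPM, 256 of its 342 UMIs being Ctss. A UMI of at least 1 myeloid marker was found in 73.9% of members and in 63.3% of other cells. Plasmacytoid dendritic cell markers (4 of 8 in the table, Bcl11a at 0) summed to 0 to 31.5 CPM against 13.3 to 26.2 CPM. NK markers gave 2 UMIs in all where 2.60 were expected, with Eomes and Prf1 at 0. Of the CD8 pair Cd8a was at 0 where 0.184 UMIs were expected, and Cd8b1 had 8 UMIs against 11.1. One member, in set 5, stood apart, with 75.5% of its 8189 UMIs from erythroid genes. The next highest erythroid share among members was 0.0767%. Among the 518 cells left out for Cd79a or Lyz2, 14 met the marker rule (2.70%, 1.49 to 4.49%). The sets shared 63 barcodes, carried by 126 cells of which 2 were members.

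Each gene was described by the UMIs observed in members over the UMIs expected from the other cells of the same set at the members' depth, summed over the sets. A ratio of 1 is no difference, and exact Poisson intervals follow in parentheses. A gene was measured at 20 CPM or more over all passing cells, which 4843 genes reached apart from the defining ones. Members count in that level, so a gene could reach it through them. Trafd1 had 19.5 CPM in other cells and 21.0 CPM over all passing cells, and how many risen genes were like it was not counted. Trafd1 stays in the counts of risen genes, here and by list, so the filter may raise these counts and their shares. A measured gene is said to have risen or fallen when the ratio was 1.5-fold or more in 1 direction and every set, after 0.5 UMIs were added, showed that direction. By that rule 103 genes rose, 2.13% of those measured, and 42 fell, 0.867%. For 78 of the 103 the range of the members' levels over the 6 sets lay wholly outside that of the other cells. The same held for 23 of the 42 that fell and for 144 of all 4843 measured genes.

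Genes known as interferon-induced made up most of what rose. Lists of interferon effectors, sensors, signalling molecules, GTPases and antigen presentation genes named 234 genes. Of these, 197 were in the table under the listed symbols and 136 were measured. Of the 136, 68 rose and 0 fell, 50% against 0.744% of the 4707 measured genes outside the lists that rose. Their median log2 ratio was 0.70, against -0.09 over the measured genes outside them. Another 61 listed genes in the table lay under 20 CPM. For 45 of these the observed count exceeded the expected one, and for 30 the counting interval lay above 1.

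**Figure D2:**
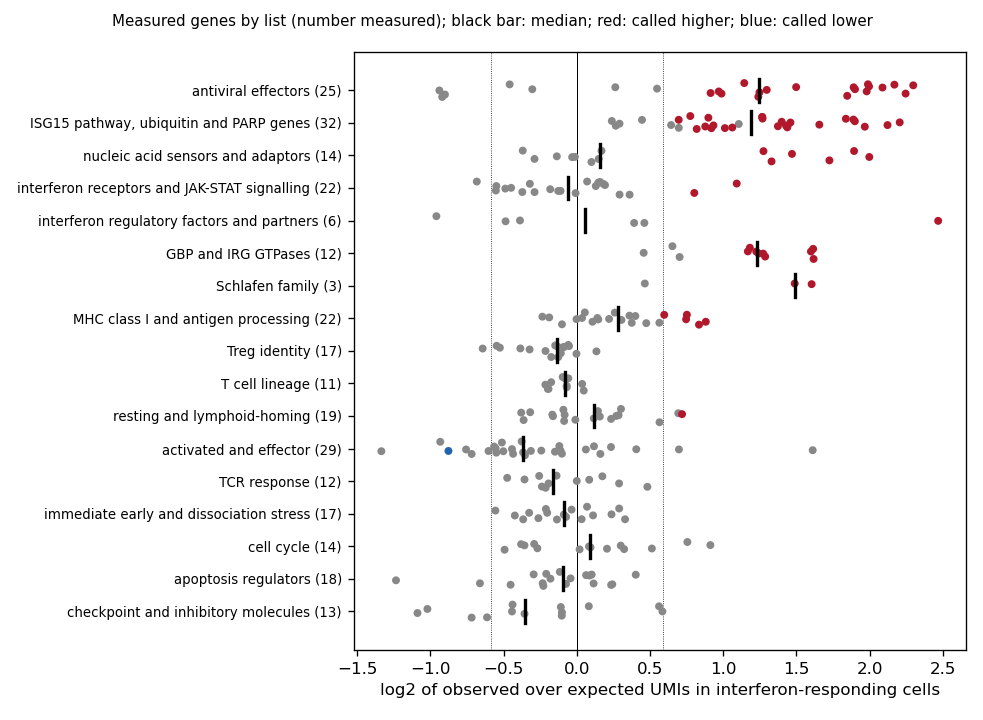
Log2 of observed over expected UMIs in interferon-responding Treg cells for each measured gene, by gene list, with the number measured in parentheses. Points are genes, black bars are medians, red genes rose and blue genes fell, and dotted lines mark 1.5-fold. Red points fill the antiviral, ISG15 and GTPase lists (18 of 25, 25 of 32 and 9 of 12), and 1 gene in all of the lists from Treg identity down rose.

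Receptor chains were near the level of other cells while Irf9 rose. Ifnar1 had 48 UMIs observed and 37.4 expected (ratio 1.28, 0.946 to 1.70), Ifnar2 had 30 and 38.8 (0.772, 0.521 to 1.10), and the kinase gene Jak1 had 120 and 108 (1.12, 0.925 to 1.33). None of these passed the rule, nor did Ifngr2 of the interferon gamma receptor, at 9 UMIs against 14.5. Irf9, the DNA-binding partner of the STAT proteins, rose 1.74-fold (1.42 to 2.12), with 137 to 178 CPM in members and 77.1 to 95.1 CPM in other cells. Stat2 itself lay under the level filter, with 37 UMIs where 9.45 were expected (3.91, 2.76 to 5.40). In all, 2 of 22 measured receptor and JAK-STAT genes rose and 0 fell, at a median log2 ratio of -0.06, while the list summed to a ratio of 1.21 (1.15 to 1.27). The feedback inhibitor Socs1 was not among them (1.22, 0.995 to 1.49).

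Irf7, the factor that amplifies type I interferon production and is itself induced, rose most among the regulators. Its level in the members of sets 1 to 6 was 281, 380.4, 483, 382, 361 and 210.1 CPM. The other cells had 51.0, 51.0, 68.2, 57.1, 58.3 and 64.6 CPM. The lowest member value was above 3 times the highest of the others, and the ratio was 5.53 (4.83 to 6.31), with a UMI in 129 members. It was the only 1 of 6 measured interferon regulatory factor genes and partners to rise. Irf1, typical of the response to interferon gamma, had a ratio of 1.31 (1.07 to 1.58) and Irf2, its antagonist, 1.38 (1.10 to 1.70), both below 1.5. Interferon transcripts themselves were hardly captured: of 20 listed interferon genes 2 were in the table, with 0 UMIs of Ifnz and 4 of Ifng in members.

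Antiviral effectors rose in 18 of 25 measured genes, at a median log2 ratio of 1.25. Bst2 encodes tetherin, which holds budding virus at the cell surface. In members it had 582, 618, 599.7, 750.2, 602 and 378 CPM by set and in other cells 127, 124, 128, 136, 157 and 152 CPM. Each member value stood above all of the others, and Bst2 rose 3.94-fold (3.55 to 4.37). Isg20, an exonuclease that degrades viral RNA, had 221, 279 and 341 CPM in members as the lowest, median and highest set and 45.2, 55.3 and 60.3 CPM in other cells, and rose 4.92-fold (4.22 to 5.70). Rtp4, a chaperone that can bind viral RNA, had 188, 282 and 357 CPM against 44.5, 58.0 and 68.0 CPM and rose 4.74-fold (4.07 to 5.49). Xaf1, a pro-apoptotic partner of Xiap, rose 4.5-fold (3.82 to 5.26) while Xiap had 22 UMIs where 34.8 were expected. Oas1a, which makes a messenger molecule in response to double-stranded RNA, rose 3.99-fold (3.14 to 4.99). Samhd1, which depletes nucleotides that retroviruses need, rose 2.37-fold (2.17 to 2.59), and Trim30a rose 3.73-fold (3.20 to 4.33). Trim5 had 12 UMIs against 23 expected and Ifi30 had 8 against 15.1, and neither passed the rule.

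Several well-known effectors lay under the level filter, and some had larger ratios than any gene that rose. Mx1, a GTPase that blocks influenza virus, had 22 UMIs in 21 members where 0.854 were expected (25.8, 16.1 to 39.0), with 23.8 to 54.6 CPM in members and 0.533 to 1.86 CPM in other cells. Oasl2 had 45 UMIs against 5.40 (8.33, 6.07 to 11.1), and Cmpk2, the neighbour of Rsad2 that makes the nucleotide viperin works on, had 23 against 3.26 (7.05, 4.47 to 10.6). Eif2ak2, which encodes the RNA-activated kinase PKR, had 54 against 10.8 (4.98, 3.74 to 6.50). Ifitm3, which blocks viral fusion, had 47 against 3.81 (12.3, 9.06 to 16.4) but was uneven, lying in 18 members with 14 UMIs in 1 of them, a cell of set 5. Its ratio was 8.70 (5.99 to 12.2) without that cell.

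The ISG15 conjugation pathway and interferon-induced ubiquitin and PARP genes had the largest share of risen genes among the larger lists, 25 of 32, with a median log2 ratio of 1.19. Ube2l6, the enzyme that hands ISG15 to its ligases, rose 4.61-fold (3.83 to 5.51). Its member values were 197, 190.2, 165, 136, 411 and 94.6 CPM by set, and the other cells had 33.1 to 46.4 CPM. Set 5 was high and contains the erythroid-rich member, which held 9 of the 122 UMIs; without that cell the ratio was 4.33 (3.57 to 5.21). Herc6, the ligase for ISG15 in mice, rose 3.91-fold (2.92 to 5.13). Parp9, which works with Dtx3l to amplify interferon signalling, had 93.8, 121 and 164 CPM as the lowest, median and highest member set against 21.9, 26.1 and 31.7 CPM, and rose 4.35-fold (3.44 to 5.44). Parp14 rose 3.15-fold (2.60 to 3.79), and of the nuclear body genes Pml rose 3.57-fold (2.68 to 4.67), Daxx 2.71-fold (2.15 to 3.37) and Sp100 2.09-fold (1.86 to 2.33). Among surface genes on the list, Ly6a, which encodes Sca-1, rose 2.02-fold (1.80 to 2.25) and Ly6c1 rose 3.70-fold (3.04 to 4.47).

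Sensors of nucleic acid rose in 6 of 14 genes measured under their listed symbols, at a median log2 ratio of 0.16. Zbp1, which binds left-handed nucleic acid, had 394, 166, 421, 450.1, 522 and 289 CPM in members by set and 85.8 to 110.0 CPM in other cells, and rose 3.72-fold (3.27 to 4.21). Set 2 was lowest but still above all values of the other cells. Ddx60 rose 3.99-fold (3.06 to 5.12) and Ddx58, which encodes RIG-I, 2.77-fold (2.10 to 3.58). Below the level filter, Ifih1, which encodes MDA5, had 37 UMIs against 9.23, and Dhx58, which encodes LGP2, had 49 against 8.11. The adaptor gene Tmem173, which encodes STING, did not pass the rule (1.12, 0.863 to 1.44).

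Several genes of the PYHIN family, whose proteins bind DNA, were among those that rose and are named after their values were seen. Pyhin1 rose 3.31-fold (2.78 to 3.91). Gm4955, Pydc4 and Pydc3 rose 4.43-fold (3.93 to 4.98), 4.29-fold (3.63 to 5.04) and 4.17-fold (3.40 to 5.06). RefSeq lists these 3 genes as Ifi206, Ifi213 and Ifi208, names that are on the sensor list. The cell data use the other symbols, so the 3 genes were counted as outside the lists. Gm4955 had 338, 439 and 542 CPM as the lowest, median and highest member set against 84.4, 96.3 and 107 CPM in other cells. These genes are near copies, which their promoters show.
Gm4955, chr1:173491324-173491383, minus strand: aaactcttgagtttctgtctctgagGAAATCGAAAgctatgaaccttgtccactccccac
Pydc4, chr1:173599311-173599370, minus strand: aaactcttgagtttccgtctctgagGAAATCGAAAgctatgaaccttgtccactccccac
The window of Gm4955 differed from that of Pydc4 in 1 of 60 letters, and the window of Pydc3 from that of Pydc4 in 0. How reads were shared within the family is not known, so the sum is firmer than the order of the 3 ratios.

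GTPases of the GBP and IRG families, which attack the vacuoles of intracellular pathogens, rose in 9 of 12 measured genes with a median log2 ratio of 1.23. Iigp1 rose 3.06-fold (2.52 to 3.68), with 291, 190.2, 186, 259, 151 and 68.3 CPM in members by set and 43.6 to 66.0 CPM in other cells. Set 6 was lowest in members and only just above the highest value of the others. Irgm1 rose 3.03-fold (2.44 to 3.71), Igtp 2.44-fold (2.09 to 2.83), Gbp4 2.42-fold (1.99 to 2.91) and Gbp2 2.27-fold (1.76 to 2.87). Gbp5 had 21 UMIs against 12.9, higher in 3 of the sets, and did not pass. Schlafen genes, some of which restrain T cell proliferation, rose in 2 of 3 measured, Slfn1 3.04-fold (2.62 to 3.5) and Slfn8 2.81-fold (2.21 to 3.51). Slfn2 had higher members in every set but a ratio of 1.38 (1.24 to 1.53).

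MHC class I and antigen processing genes rose in 5 of 22 measured, at a median log2 ratio of 0.28. The non-classical genes H2-T22 and H2-T23 rose 1.84-fold (1.65 to 2.05) and 1.78-fold (1.54 to 2.06). Tapbp, the tapasin that loads peptide, rose 1.68-fold (1.5 to 1.89), and the immunoproteasome subunit Psmb10 rose 1.68-fold (1.47 to 1.90), with 296 to 469 CPM in members and 194 to 247 CPM in other cells. The classical chains H2-K1 (1.02, 0.977 to 1.07) and H2-D1 (1.04, 0.998 to 1.08) and their light chain B2m (1.08, 1.04 to 1.12) were abundant and within 1.12-fold of the other cells.

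By symbol, 35 genes outside the lists and the defining genes rose, Gm4955, Pydc4 and Pydc3 among them. Cxcl10 had the largest ratio of all genes that rose. Larger ratios among measured genes were those of the haemoglobin genes Hba-a2 (18.3), Hbb-bt (15.6), Hba-a1 (15.4) and Hbb-bs (11.7), which lay almost wholly in the erythroid-rich member and did not pass the rule. Cxcl10 encodes a chemokine that draws cells bearing Cxcr3. Member levels were 93.8, 47.6, 145, 368, 211 and 158 CPM in sets 1 to 6, and those of other cells were 18.2, 17.1, 27.4, 29.3, 25.2 and 24.4 CPM. The ranges did not overlap, although the members of set 4 had over 7 times the level of those of set 2, and the ratio was 6.96 (5.73 to 8.38). Its 111 UMIs lay in 39 members, at most 10 in 1 cell. A Cxcl10 UMI was found in 18 of the 68 members with 10 or more defining UMIs (26.5%) and in 10 of the 83 with 4 or 5 (12%). Because Cxcl10 is also a product of myeloid cells, 10 myeloid markers, all but Ctss and Lyz2, were summed. They gave 163 CPM (94.9 to 261) in members with Cxcl10, 125 CPM (97.1 to 158) in members without it and 145 CPM (123 to 169) in other cells with it, intervals that overlapped. Cst3 held 77 of the summed UMIs in members and stood at 136 CPM in other cells, so the overlap says little about the remaining markers. Ctss had 256 UMIs in members where 211 were expected (1.21, 1.07 to 1.37) and was higher in every set. All 39 members with Cxcl10 held a Cd3d, Cd3e or Cd3g UMI. So did all members without it and 99.5% of other cells, a share too near its ceiling to show a difference. Members held 16.9% of all Cxcl10 UMIs.
The Cxcl10 promoter held the searched letters 203 bases before the start, further out than in the defining genes shown, and is printed because this gene leads those that rose.
Cxcl10, chr5:92349068-92349127, minus strand: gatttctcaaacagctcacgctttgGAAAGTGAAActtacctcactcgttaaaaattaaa

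**Figure D3:**
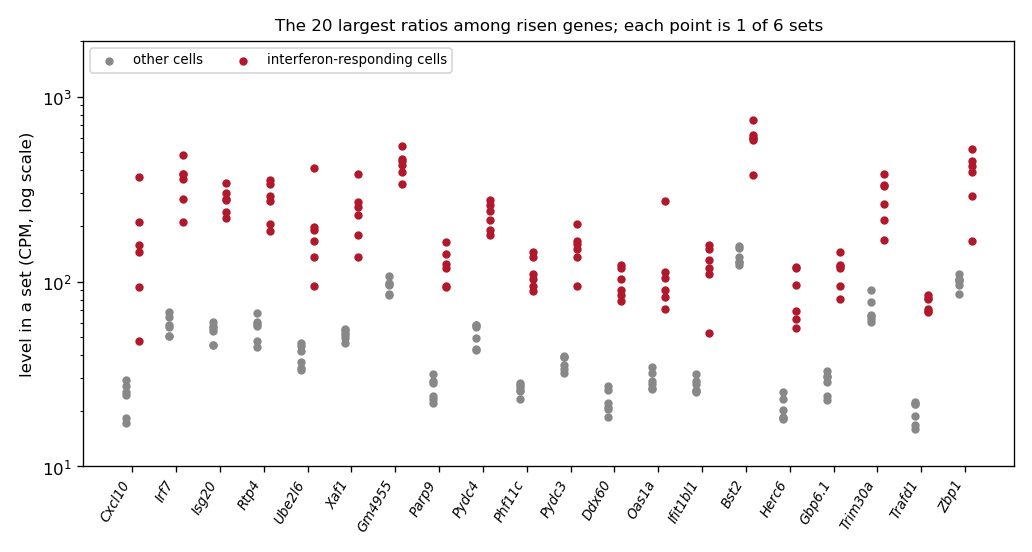
Level in CPM, on a log scale, of the 20 genes with the largest ratios among those that rose, from Cxcl10 (6.96) to Zbp1 (3.72). Each point is 1 of 6 sets, red for interferon-responding Treg cells and grey for other cells. Red and grey ranges do not overlap for any of the 20 genes, and Cxcl10 has the widest spread of red points.

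Gbp6.1, named by the table as a second entry of a GBP gene, rose 3.86-fold (3.03 to 4.84), and which locus it stands for is not settled here. Other genes outside the lists have more varied roles. Nampt, the rate-limiting enzyme of NAD salvage, rose 3.36-fold (2.52 to 4.38), with 40.1, 95.3 and 117 CPM as the lowest, median and highest member set and 19.7, 25.6 and 29.6 CPM in other cells. Mitd1, which acts in the last step of cell division, rose 2.24-fold (1.87 to 2.67). Smchd1, a chromatin protein of the inactive X chromosome, rose 2.02-fold (1.64 to 2.47), and Ogfr, the opioid growth factor receptor, 2.14-fold (1.69 to 2.67). Ccnd2, a cyclin of the G1 phase, rose 1.63-fold (1.49 to 1.78) with 562 to 1213 CPM in members against 408 to 542 CPM. These genes were singled out after their values were seen.

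The response element letters described above, GAAA on both sides of any 2 bases, were more frequent in the promoters of genes that rose. They stood in 30 of the 85 risen genes with a promoter entry (35.3%), against 175 of 3887 measured genes (4.5%) and 1079 of all 27025 genes with an entry (3.99%). They stood in 0 of 33 genes that fell. Of the 20 largest ratios among risen genes 16 had an entry and 9 of these held the letters. The closest matches to a start among the genes printed here were in Oas1a and Ddx60, at 4 and 9 bases.
Oas1a, chr5:120907526-120907564, minus strand: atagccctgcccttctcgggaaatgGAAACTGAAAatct
Ddx60, chr8:61928043-61928086, plus strand: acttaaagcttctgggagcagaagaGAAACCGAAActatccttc
Bst2, chr8:71537562-71537621, minus strand: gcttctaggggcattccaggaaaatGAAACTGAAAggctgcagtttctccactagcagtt
The Bst2 match was 114 bases before the start. Many risen genes, Irf7 among the first, had no match, which says only that these letters are not in this window.

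Levels of several genes outside the rule were higher in cells with more defining UMIs, also below the threshold. Irf7 had 50.8 CPM in cells with 0 defining UMIs, 67.9 with 1, 87.4 with 2 and 137 with 3. In members it had 209 CPM (155 to 277) with 4 or 5 defining UMIs, 344 (273 to 429) with 6 to 9 and 475 (383 to 583) with 10 or more. So the values just inside and just outside the threshold formed a gradient with no gap. The summed antiviral list went from 5888 CPM at 0 through 6375, 7398 and 8455 to 9942, 12544 and 16042 CPM over the same classes. The GBP and IRG list went from 712 through 808, 960 and 1062 to 1337, 1486 and 2806 CPM. Cxcl10 had another shape: 21.4, 23.8 and 23 CPM up to 2 defining UMIs, 92.0 at 3, 76.9 and 105 in the next classes and 357 (277 to 451) at 10 or more. H2-K1 had no such gradient, at 2584 CPM with 0 and 2589 CPM with 10 or more. In the 12 cells with 4 or more UMIs from a single defining gene the antiviral list stood at 7234 CPM, below the cells with 3. Deeper cells collect more UMIs of every gene, and the median depth of these classes ran from 1988 UMIs at 0 to 2441 at 10 or more, with 2609 at 4 or 5. Its part in the gradient was not tested.

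**Figure D4:**
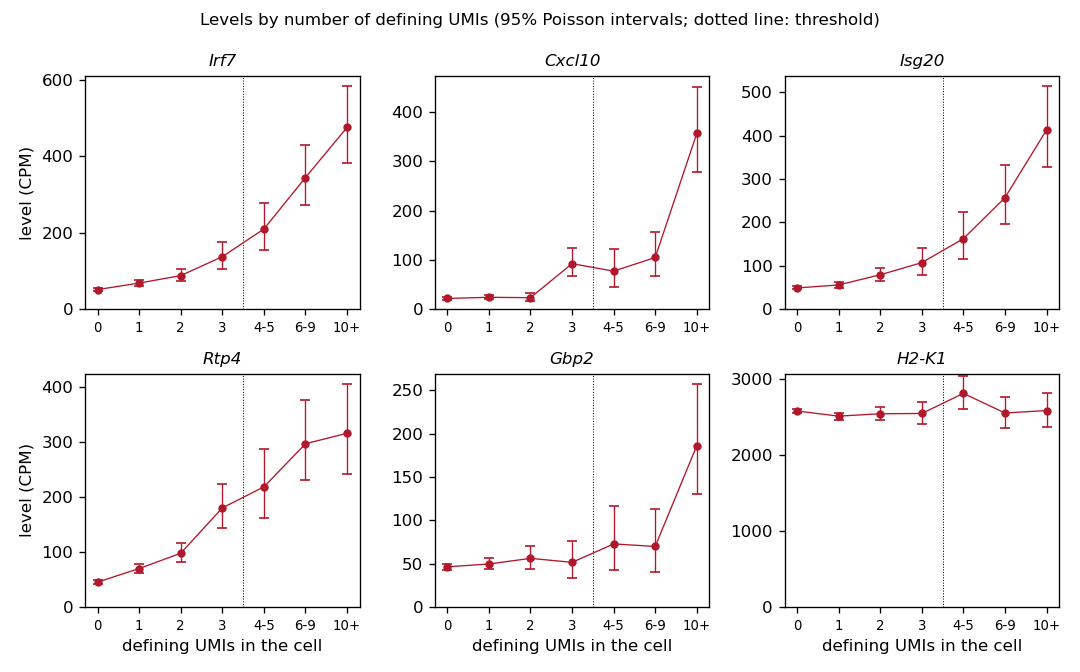
Level in CPM of 6 genes outside the rule in cells grouped by their number of defining UMIs, with 95% Poisson intervals. The dotted line is the threshold of 4. Irf7, Isg20 and Rtp4 climb from class to class, Cxcl10 and Gbp2 are highest in the last class, and H2-K1 stays between 2516 and 2816 CPM.

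No Treg identity or T cell lineage gene passed the rule, but both lists were somewhat lower in sum. Over all measured genes 2.13% rose and 0.867% fell, so 0 calls in lists of this size say little. Of 17 measured Treg identity genes 0 rose and 0 fell, at a median log2 ratio of -0.13, against -0.09 for all measured genes, and 1 had a ratio above 1. Their list summed to a ratio of 0.848 (0.816 to 0.880), with members lower in every set. Il2ra, the high-affinity chain of the IL-2 receptor, had a ratio of 0.960 (0.744 to 1.22), Ctla4, the inhibitory receptor, 0.927 (0.712 to 1.19) and Ikzf2, which encodes Helios, 0.862 (0.794 to 0.935). Tnfrsf18, which encodes the costimulator GITR, was lower in members in every set. Its member values were 394, 333, 379, 355, 331 and 415 CPM by set and those of other cells 479, 496, 477, 619.5, 611 and 613 CPM. The ranges did not overlap, and the ratio was 0.684 (0.602 to 0.774), short of 1.5-fold. Its relative Tnfrsf4, which encodes OX40, had a ratio of 0.695 (0.619 to 0.776) and was lower in 5 sets. Of 11 T cell lineage genes 0 rose and 0 fell, at a median of -0.08, close to the -0.09 of all measured genes. The list summed to 0.910 (0.881 to 0.939), also lower in every set. In set 5 erythroid genes made up 62224 CPM of the members, which lowers the level of every other gene there. List sums without the erythroid-rich member were not computed. The targeted gene Bach2 had 46.9, 0, 20.7, 40.9, 20.1 and 52.5 CPM in members and 17.2, 25.7, 22.8, 31.5, 36.6 and 35.6 CPM in other cells. That is 23 UMIs against 19.0 expected (1.21, 0.769 to 1.82), higher in 3 sets and lower in 3, so a difference was not detectable at this depth. Of 7 measured BACH, AP-1 and small MAF genes 0 passed the rule, at a median log2 ratio of -0.08.

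Few markers of activated or resting Treg cells passed the rule. The shares over all measured genes, 2.13% risen and 0.867% fallen, would also give few in lists of this size. Of 29 measured activated genes 0 rose and 1 fell, at a median log2 ratio of -0.37, and of 19 resting genes 1 rose, at a median of 0.12. Tnfrsf9, which encodes the costimulator 4-1BB, was the gene that fell. Its members had 56.3, 47.6, 41.4, 54.6, 30.1 and 126 CPM by set and the other cells 109, 104, 97.4, 142, 134 and 151 CPM. Set 6 was high and overlapped the other cells of other sets, and the ratio was 0.544 (0.397 to 0.728). Id2, a regulator of effector differentiation, had 45 UMIs against 85.9 and Klrg1, a marker of terminally differentiated Treg cells, 8 against 20.2, each lower in 5 sets. The resting gene that rose was Treml2, with 23 UMIs against 14 (1.65, 1.04 to 2.47), a call that rested on the 0.5 UMIs added in set 2, where its level was 23.8 CPM in members and 27.3 CPM in other cells. Ccl5, a chemokine of effector cells, had a ratio of 3.05 that rested on 1 cell with 389 of its 509 UMIs. Without that cell the ratio was 0.725 (0.601 to 0.867).

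Interferon-responding cells were found in all parts of the range from resting to activated, with the largest number on the resting side. Each cell was scored as its mean log-normalised activated genes minus its mean resting genes after thinning to 1000 UMIs, and cells were divided within each set into 3 equal parts. Of 225 scored members 86 lay in the lower, resting part (38.2%, 31.8 to 44.9%). The middle part held 73 (32.4%, 26.4 to 39.0%), and the upper, activated part held 66 (29.3%, 23.5 to 35.7%). With 10 other seeds of the thinning the lower part held 40.4 to 45.8% and the upper part 22.7 to 30.2%, so the share in the lower part was higher with each of them. Members were 2.62, 2.22 and 2.01% of the cells of these parts. Depth moved with this order, as other cells had a median of 2401 UMIs in the lower part and 1919 in the upper. By the rule on thinned cells the shares were 2.49% (1.99 to 3.09%), 2.77% (2.24 to 3.39%) and 2.16% (1.69 to 2.72%), and the intervals overlapped at the seed used. The interferon lists as a whole stood at ratios of 1.46 (1.44 to 1.49), 1.52 (1.49 to 1.55) and 1.47 (1.44 to 1.5) over other cells of the same part. Abundant MHC class I genes weigh most in these sums. Their list had 16274 CPM in cells with 0 defining UMIs, beside 31489 CPM for all measured interferon list genes. Over all members it summed to a ratio of 1.13, against 2.03 for the antiviral and 2.40 for the GBP and IRG list. Irf7 had ratios of 5.66, 5.19 and 5.81. Cxcl10 differed, with 13, 27 and 71 UMIs from the lower to the upper part and ratios of 4.72 (2.51 to 8.07), 5.38 (3.54 to 7.82) and 10.4 (8.16 to 13.2), the last above the others. Ifitm3 had 38 of its 47 UMIs in the lower part.

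**Figure D5:**
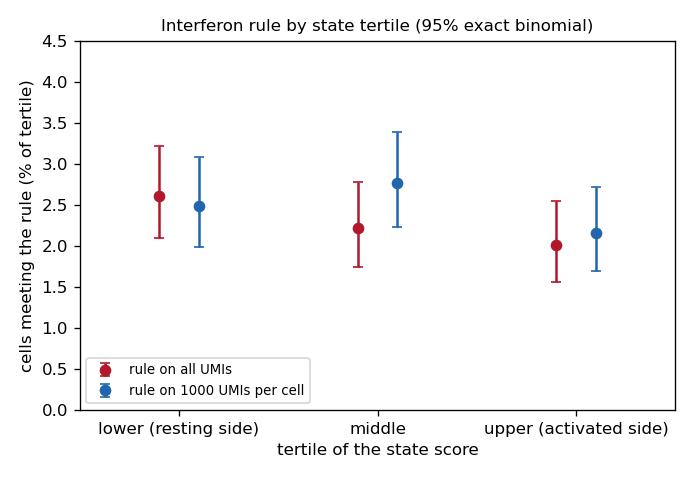
Cells meeting the interferon rule as a percent of all cells in the lower (resting side), middle and upper (activated side) part of the state score, with 95% exact binomial intervals. Red points use all UMIs and blue points use 1000 UMIs per cell. Values lie between 2.01 and 2.77% and all intervals overlap.

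Other programs held few or no genes that passed the rule. Over all measured genes 2.13% rose and 0.867% fell, so counts of 0 or 1 in lists of this size say little about these programs. None of the measured genes rose or fell among 4 T helper 1 genes (median log2 ratio -0.07), 12 TCR response genes (-0.17), 17 immediate early and dissociation stress genes (-0.09), 18 apoptosis regulators (-0.10), 13 checkpoint genes (-0.36), 14 cell cycle genes (0.09) or 13 mitochondrially encoded genes (-0.14). Of 95 ribosomal protein and related genes 1 fell, Rpl7l1 (0.618, 0.404 to 0.906). Cd274, which encodes PD-L1 and is known as interferon-induced, had 21 UMIs against 14 (1.5, 0.928 to 2.29) and was higher in 5 sets. Cd47, the signal that restrains phagocytes, had 263 against 178 (1.48, 1.30 to 1.67) and was higher in every set. Mki67, a marker of dividing cells, had 18 UMIs against 5.71 in 6 members, and 3 members (1.33%) held 3 or more UMIs of 8 mitotic genes against 0.705% of other cells.

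Of the 42 genes that fell, 2 were on a list, Tnfrsf9 and Rpl7l1. Their median expected count was 26.0 UMIs and the highest 156, and the median was 31.9 over all measured genes and 30.4 over those that rose. The lowest ratios belonged to Cpox, an enzyme of haem synthesis (4 UMIs against 14.9, 0.269, 0.0734 to 0.690), the uncharacterised B230307C23Rik (4 against 13.9) and Pip5k1a, a lipid kinase (6 against 18.2). Among genes with over 100 expected UMIs, Cd81, a tetraspanin, had 99 UMIs against 151 (0.657) and Lfng, which modifies Notch receptors, 90 against 135 (0.664). When the members were chosen by a stricter or looser threshold, on thinned cells or without cells carrying transcripts of other cell types, 3 to 8 of the 42 fell again, against 79 to 86 of the 103 that rose again.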

How the data were processed

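The authors deposited raw UMI counts, 25389602 UMIs over 14098 genes and 10685 cells. A second deposited table gave values on a natural log scale for 10464 of these cells and was used here only to see which cells the authors kept, 223 of the members among them. Seurat, Cell Ranger, HISAT2, cutadapt and FastQC are named, without versions or order, as tools per the submitters' processing notes, with build mm10. None of the cell columns named a sample, so the planned comparison of cKO with WT was not run. Members, gene lists, marker lists and rules were chosen with earlier results of these data known.

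UMIs were summed over members (657055) and over other cells (23263760) of each set, and ratios of observed to expected UMIs have exact Poisson intervals at 95%. Shares have exact Clopper-Pearson intervals. Calling needed 20 CPM, 1.5-fold and the same direction in 6 of 6 sets with 0.5 UMIs added. Named by rule were Bach2, Foxp3, the 20 largest ratios among risen and 10 lowest among fallen genes, and the 4 members of each list farthest from 1 with 20 or more observed and expected UMIs together; other genes were named for their role or, where said, after their values were seen. The ratios were tried on simulated sums per set with known changes above 1.5-fold in genes above the 20 CPM filter, drawn without differences between cells. That does not cover changes near 1.5-fold, genes near 20 CPM or genes held mostly by 1 cell. No doublet caller was run. Some genes are not reported here. An alternative left out cells with a UMI of Cd8a, Cd79b, Hbb-bs or Cst3 (Siglech, also planned, was not in the table) and the deepest 2%. Alternatives chosen after seeing the data were leaving out erythroid-rich cells, leaving out mitotic cells, adding no UMIs for the direction, and requiring a counting interval that leaves out 1. Gene names are those of the table, and promoters were matched by symbol to RefSeq. Python 3.11.15, numpy 2.4.6, scipy 1.17.1, pandas 2.3.3 and matplotlib 3.10.9 were used.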

Additional observations from a re-analysis of the deposited data

Results flagged for a closer look

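Of 44 items checked over the 6 sets, 43 gene levels and the share of members, 6 gene levels were flagged. In each of these, 1 set's members stood apart from those of the other sets. The gap to the nearest set, relative to the whole range, was above Dixon's critical value for 6 values. Chance alone gives such a gap in about 1 in 20 groups. Member levels were 411 CPM for Ube2l6 in set 5 (94.6 to 197 CPM in the other sets), where the erythroid-rich member held 9 of its UMIs. In set 4 they were 273 CPM for Oas1a (71.3 to 113 CPM elsewhere), 246 CPM for Slfn8 (84.0 to 131 CPM) and 532 CPM for H2-T23 (166 to 289 CPM). In set 6 they were 126 CPM for Tnfrsf9 (30.1 to 56.3 CPM) and 21.0 CPM for B230307C23Rik, which had 0 UMIs in the members of the other sets. Without set 4 the log2 ratio of Oas1a was 1.76 instead of 2.0, and without set 6 that of Tnfrsf9 was -1.36 instead of -0.88.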

How the results depend on the processing

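Each result was recomputed under up to 27 alternatives. Of 2964 values of named genes, 2865 stayed within the counting interval and 99 moved beyond it. A change of direction was looked for only in the 1159 values of the 43 named genes that rose or fell, and 0 of these reversed. Some alternatives changed only the level filter, the fold, the added UMIs or the interval required for a call. They leave each ratio as it was, so their values are in these totals but could neither move nor reverse. The share of members was 1.25% at 6 UMIs from 3 genes and 3.25% at 3 UMIs from 2 genes. Risen genes numbered 114 to 126 when each set was left out in turn (at least 97 of the 103 among them), 47 at 50 CPM, 1276 with no filter beyond 1 UMI and 63 at 2-fold. Risen interferon list genes numbered 67 to 71 with a set left out, 39 at 50 CPM and 104 with no filter. Fallen genes numbered 80 to 93 with a set left out, 71 from means of single-cell CPM, 20 relative to the median gene, 16 at 50 CPM, 13 at 2-fold and 103 with no UMIs added; that last choice gave 88 risen genes. Relative to the median gene 131 rose. Without erythroid-rich cells 107 rose and 38 fell. With members and other cells matched on depth 116 rose and 39 fell, 100 and 30 of them shared with the counts above, and matched on state 108 and 35. The share of members in the lower part of the state score was 45.8% with 1 of 10 other thinning seeds, and 40.4 to 45.8% over all 10. No paired analysis was possible because no cell column names a sample, a genotype or a replicate number. At the members' 657055 UMIs a gene at 20 CPM has few UMIs, which limits single genes more than lists.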
